A study of Homo sapiens with 12 samples.

Results

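MYOD1, POU5F1 and the 5 genes of the beta-globin cluster (HBE1, HBG1, HBG2, HBD and HBB) are loci that the study activated in other experiments, with guide RNAs of their own. None of those guides was given in the 12 RNA-seq libraries described here, so the 7 genes served as loci without a guide. They were chosen by name and not by a filter on their values, though earlier results of these data were known. They are 7 of 24395 features counted, 23527 of which carry a gene name. The question is whether RNA of these genes differed between the proteins delivered, and how low a level the libraries could have shown.

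All 12 libraries came from HEK293T, a transformed human embryonic kidney cell line, and all cells received guide RNA plasmids for 4 sites at IL1RN, the interleukin 1 receptor antagonist gene. The groups, of 3 libraries each, differed in the protein that was delivered with the guides. These were dCas9-VP64, in which a viral activation domain is fused to the nuclease-dead Cas9 protein; dCas9-p300 core, which carries the acetyltransferase domain of p300; dCas9-p300 D1399Y, whose acetyltransferase is inactive; and dCas9 alone. Plasmids were delivered by lipid transfection, and the labels put the share of transfected cells, read from a separate eGFP plasmid, at routinely more than 80%, so that each library mixes transfected and untransfected cells. The labels record triplicate transfection and nothing on separate cultures, so a p-value here weighs differences only against the spread of these samples, which may be technical. Per the labels, 10 libraries were in pool CV41, and replicate 3 of both p300 groups was in pool CV42, which holds no library of the other groups.

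MYOD1 is the basic helix-loop-helix factor that can turn fibroblasts into muscle cells, and it is normally silent outside the muscle lineage. POU5F1 encodes OCT4, a POU domain factor that maintains pluripotency. Its OCT4A isoform is the form with that activity, while OCT4B-type transcripts, which start further inside the gene, are found in many somatic cells and do not maintain pluripotency. The beta-globin cluster holds genes that red blood cell precursors switch on in order of development under a shared locus control region: HBE1 in the embryo, HBG1 and HBG2 in the fetus, and HBD and HBB after birth. MYOD1 and the 5 globin genes lie on chromosome 11 and POU5F1 on chromosome 6.

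Near-identical sequence limits what a read can show for some of these genes. Stretches of the fetal and embryonic globin genes are given to show how far a read can tell them apart, since 1 read was listed under a fetal gene. They run from base 197 to base 257 of each coding sequence, counted from the A of the start codon, were read from GENCODE 29 transcripts of GRCh38, and capitals in HBG1 and HBG2 mark the base that differs between that pair, while capitals in HBE1 mark bases that differ from HBG1.
HBG1: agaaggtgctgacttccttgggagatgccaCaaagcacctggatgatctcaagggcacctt
HBG2: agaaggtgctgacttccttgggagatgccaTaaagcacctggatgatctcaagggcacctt
HBE1: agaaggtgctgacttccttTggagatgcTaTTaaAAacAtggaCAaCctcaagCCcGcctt
HBG1 and HBG2 differ at 1 of the 61 bases shown, and at 2 of 444 over the whole coding sequence, at positions 227 and 410 (99.5% identical). HBE1 differs from HBG1 at 13 of the 61 bases and at 73 of 444 (83.6% identical). HBB and HBD, the adult pair, differ at 32 of 444 coding bases (92.8% identical). Cut into 50-base windows, 366 of the 565 windows of the HBG2 transcript (64.8%) and of the 730 of HBG1 (50.1%) were shared by the pair, while HBB and HBD shared 17 windows.

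For POU5F1 the first 60 coding bases of OCT4A are shown, with the start codon in capitals, because they set the pluripotency isoform apart.
POU5F1: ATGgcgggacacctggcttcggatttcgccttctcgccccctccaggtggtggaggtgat
This stretch occurred in 3 of the 9 POU5F1 transcripts of GENCODE and in 0 transcripts of other genes. Further along the gene, 884 of 1371 windows of the OCT4A transcript (64.5%) also lay in the OCT4B-type transcript, and 869 (63.4%) also lay in another gene, chiefly the retrogene POU5F1B, with 487 windows, and the pseudogenes POU5F1P3 and POU5F1P4. MYOD1 had no such limit: 0 of its 1752 windows lay in another gene.

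Total counts ran from 3873764 to 4104479 with dCas9-VP64, from 3778675 to 5154627 with the core, from 3700113 to 3762962 with D1399Y and from 2442960 (replicate 3) to 4228316 with dCas9. IL1RN, the gene whose guides were given, shows what a targeted gene looks like at this depth: 95, 76 and 123 reads in the dCas9-VP64 libraries, 278, 455 and 339 in the core libraries, 24, 26 and 35 with D1399Y, and 15, 28 and 25 with dCas9. Its pooled level, the group's summed reads over its summed total, in CPM (reads scaled to a total of 1000000), was 12.7 times as high with the core as with dCas9 (95% counting interval 9.96 to 16.5) and 3.74 times as high with dCas9-VP64 as with dCas9 (2.86 to 4.94). In the edgeR test over all genes, by which the members are also judged, IL1RN was called for the core against dCas9 (adjusted p = 1.85e-05) but not for dCas9-VP64 against dCas9 (adjusted p = 0.0749, and from 5.01e-07 with DESeq2 to 0.998 with the compared groups alone over the alternatives). With the replicate number as a block the edgeR value for dCas9-VP64 was adjusted p = 0.0232, and without dCas9 replicate 3 it was adjusted p = 0.00832. Of the HEK293T background list of 12 kidney, epithelial and neuronal genes, all 12 had reads, led by VIM, CDH2, NEFL and NEFM.

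Together the 7 genes held 371 of the 46187841 reads, of which POU5F1 gave 281, MYOD1 77, HBE1 12 and HBG2 1. HBG1, HBD and HBB had 0 reads in all 12 libraries. Among the named genes, 11289 had fewer reads than POU5F1, 9028 fewer than MYOD1, 6607 fewer than HBE1 and 3862 (16.4%) had none. Pooled over all 12 libraries and divided by transcript length, the levels in CPM per kilobase were 0.926 for MYOD1, 0.422 for HBE1 and 0.0353 for HBG2. The reads listed under the OCT4A row of POU5F1 gave 0.274 by the same division. That figure is not a level of OCT4A, as 64.5% of its windows also lie in the OCT4B-type transcript. HBE1 has a transcript of 616 bases against 1801 for MYOD1, so its level per length was closer to that of MYOD1 than its read count was.

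**Figure D1:**
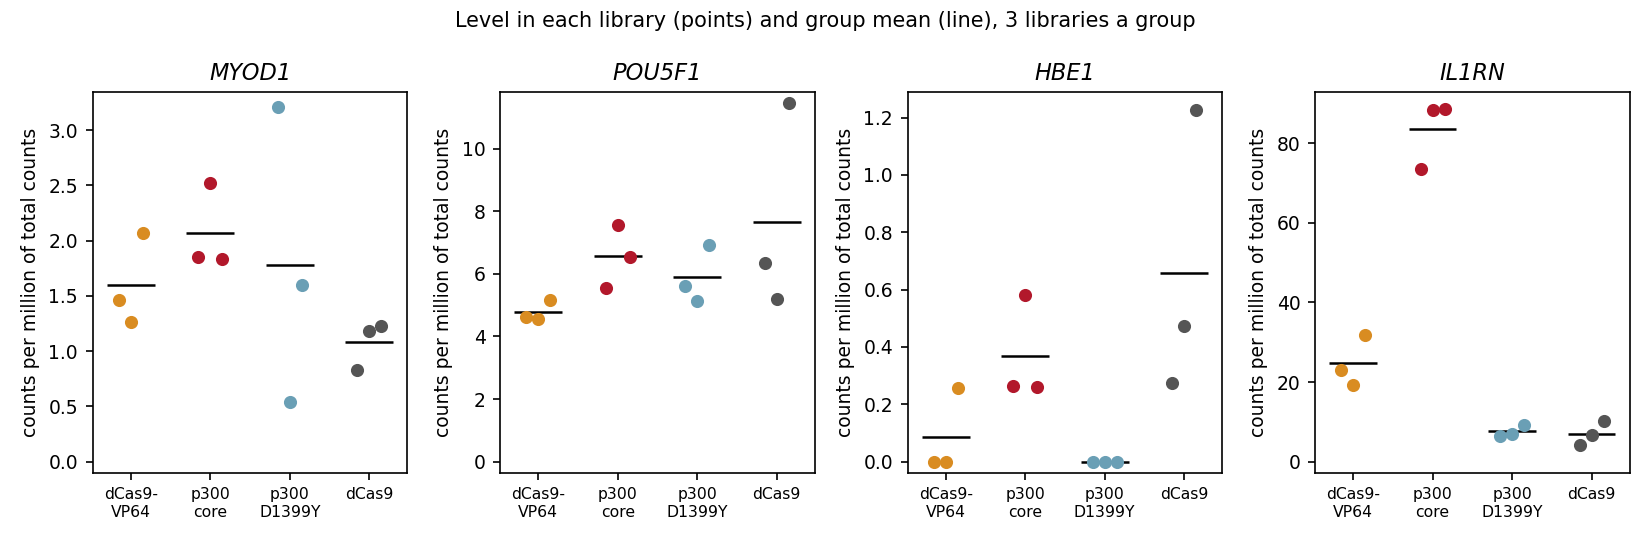
Level of MYOD1, POU5F1, HBE1 and the targeted gene IL1RN in CPM (y axis, from 0, own scale in each panel) in the dCas9-VP64, dCas9-p300 core, dCas9-p300 D1399Y and dCas9 groups; points are libraries and lines are means of 3. The core libraries stand apart for IL1RN, at 73.6 to 88.6, while the highest POU5F1 point, 11.5, and the highest HBE1 point, 1.23, belong to dCas9 replicate 3.

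MYOD1 RNA was present at a few reads per library, and the counting interval of its ratio included 1 in each of the 5 comparisons. In bulk RNA, fewer cells with a transcript and less of it per cell cannot be told apart. The counts were 6, 5 and 8 in the dCas9-VP64 libraries, 7, 13 and 7 with the core, 12, 2 and 6 with D1399Y, and 3, 5 and 3 with dCas9. In CPM of a library's total counts the means were 1.60 ± 0.416 with dCas9-VP64, 2.07 ± 0.393 with the core, 1.78 ± 1.35 with D1399Y and 1.08 ± 0.220 with dCas9 (SD, n = 3 each). The lowest dCas9-VP64 library, at 1.27 CPM, and the lowest core library, at 1.83 CPM, lay above the highest dCas9 library, at 1.23 CPM. The D1399Y libraries spread from 0.541 to 3.21 CPM and overlapped all other groups.

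For MYOD1 the groups thus did not overlap in the comparisons of dCas9-VP64 with dCas9 and of the core with dCas9, and all 9 pairs of libraries were higher each time. Among all named genes with a read, 3.29% were higher without overlap with dCas9-VP64 and 2.59% lower, while 3.9% were higher with the core and 2.81% lower. The MYOD1 groups overlapped in the other 3 comparisons. The ratio of pooled CPM was 1.49 for dCas9-VP64 over dCas9 (95% counting interval 0.675 to 3.47), 1.98 for the core over dCas9 (0.952 to 4.43) and 1.67 for D1399Y over dCas9 (0.764 to 3.87). It was 1.18 for the core over D1399Y (0.640 to 2.23) and 1.33 for the core over dCas9-VP64 (0.712 to 2.53). Each of these 5 intervals includes 1, and those of the core over dCas9, over D1399Y and over dCas9-VP64 end below the intervals of IL1RN in the same comparisons. The interval for dCas9-VP64 over dCas9 overlaps that of IL1RN. An exact permutation test over the 4 groups, two-sided, on CPM gave p = 0.456 (unadjusted), and p from 0.0844 to 0.694 on leaving out 1 library at a time.

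MYOD1 lay under the filter on low counts and so had no value in the edgeR fit of 14613 genes. With the filter removed, edgeR's quasi-likelihood test gave log2 0.61 ± 0.57 for dCas9-VP64 against dCas9 (adjusted p = 0.940), 1.00 ± 0.54 for the core against dCas9 (adjusted p = 0.879) and 0.80 ± 0.57 for D1399Y against dCas9 (adjusted p = 0.733), where the error is the standard error.

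Genes that act with or after MYOD1 in muscle were not called either. As edgeR called at most 0.00684% of all genes in any comparison, 0 calls in a short list is close to the share over all genes. The list held 24 myogenic factors, partners and muscle genes, of which 20 had a read and 11 were tested, and edgeR and DESeq2 each called 0 in any of the 5 comparisons, with 0 at an unadjusted p under 0.05 in edgeR. Over all genes, 1.86% to 5.89% reached that unadjusted p, by comparison. The myogenic factors MYF5 and MYF6, the myosin gene MYH8 and the troponin gene TNNT2 had 0 reads in all libraries. Against dCas9, 5 of 11 lay above 0 with dCas9-VP64 (median log2 -0.01), 7 with the core (0.14) and 5 with D1399Y (-0.04), where the medians over all genes were 0.00, 0.02 and 0.00. The partners of most reads, with their log2 change for the core against dCas9, were MEF2A, a factor that works with MYOD1 on muscle promoters (0.37 ± 0.22), and the E proteins TCF4 (0.15 ± 0.20), TCF12 (0.23 ± 0.23) and TCF3 (-0.09 ± 0.14), with which MYOD1 pairs. With D1399Y against dCas9 these genes stood, in the same order, at 0.42 ± 0.22, 0.32 ± 0.20, 0.35 ± 0.23 and -0.24 ± 0.14. With dCas9-VP64 against dCas9 they stood at 0.35 ± 0.22, 0.25 ± 0.20, 0.18 ± 0.23 and -0.22 ± 0.14. Summed over the list the level ran from 877 to 988 CPM with dCas9-VP64, from 917 to 986 CPM with the core, from 907 to 979 CPM with D1399Y and from 725 to 962 CPM with dCas9.

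Reads were listed under POU5F1 in every library, though many windows of its transcripts also lie in other genes. POU5F1 passed the test over all genes in 0 of the 5 comparisons. The counts were 19, 18 and 20 in the dCas9-VP64 libraries, 21, 39 and 25 in the core libraries, 21, 19 and 26 with D1399Y, and 23, 22 and 28 with dCas9. The means were 4.78 ± 0.330 CPM with dCas9-VP64, 6.55 ± 1.00 CPM with the core, 5.89 ± 0.917 CPM with D1399Y and 7.66 ± 3.34 CPM with dCas9 (SD, n = 3 each). The highest level, 11.5 CPM, belonged to dCas9 replicate 3, which had the smallest total, and the other 11 libraries lay between 4.56 and 7.57 CPM. The dCas9-VP64 libraries were the lowest group, and their highest value, 5.16 CPM, lay just below the lowest dCas9 value, 5.20 CPM.

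POU5F1 was 1 of the 14613 genes tested and the 1 member that passed the filter. It was not called in any of the 5 comparisons, and the background of genes called by edgeR was 0% for dCas9-VP64 against dCas9, 0.00684% for the core against dCas9, 0% for D1399Y against dCas9, 0.00684% for the core against D1399Y and 0.00684% for the core against dCas9-VP64. Where edgeR called 0 genes, an unadjusted p under 0.05 was reached by 449 genes (3.07%) for dCas9-VP64 and by 861 (5.89%) for D1399Y, and DESeq2 called 1 gene each. DESeq2 called POU5F1 in 0 of the 5 comparisons, and its unadjusted p in edgeR was under 0.05 in 0 of 5. The fold over dCas9 was 0.666 with dCas9-VP64 (95% interval 0.438 to 1.01; log2 -0.59 ± 0.28; adjusted p = 0.929), 0.917 with the core (0.615 to 1.37; log2 -0.12 ± 0.27; adjusted p = 0.918) and 0.840 with D1399Y (0.557 to 1.27; log2 -0.25 ± 0.28; adjusted p = 0.699). The 3 comparisons with dCas9 share its libraries. The core was 1.09-fold of D1399Y (0.729 to 1.64; log2 0.13 ± 0.27; adjusted p = 1.00) and 1.38-fold of dCas9-VP64 (0.912 to 2.08; log2 0.46 ± 0.28; adjusted p = 1.00).

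These values rest in part on dCas9 replicate 3. Without it POU5F1 stood at log2 -0.29 for dCas9-VP64, 0.17 for the core and 0.05 for D1399Y, each against dCas9, so that the last 2 changed sign. In CPM all 9 pairs of libraries were lower with dCas9-VP64 than with dCas9, as for 2.59% of named genes, and all 9 were higher with the core than with dCas9-VP64, as for 5.59%. The exact permutation test over the 4 groups gave p = 0.286 (two-sided, unadjusted). The tested genes whose log2 CPM followed POU5F1 most closely over the 12 libraries were APOL1 (Pearson r = 0.900), BCAS4 (0.892) and PCDHB9 (0.887). The 12 points share the depth of their libraries, and 52 of 14612 genes reached an r of 0.8.

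**Figure D2:**
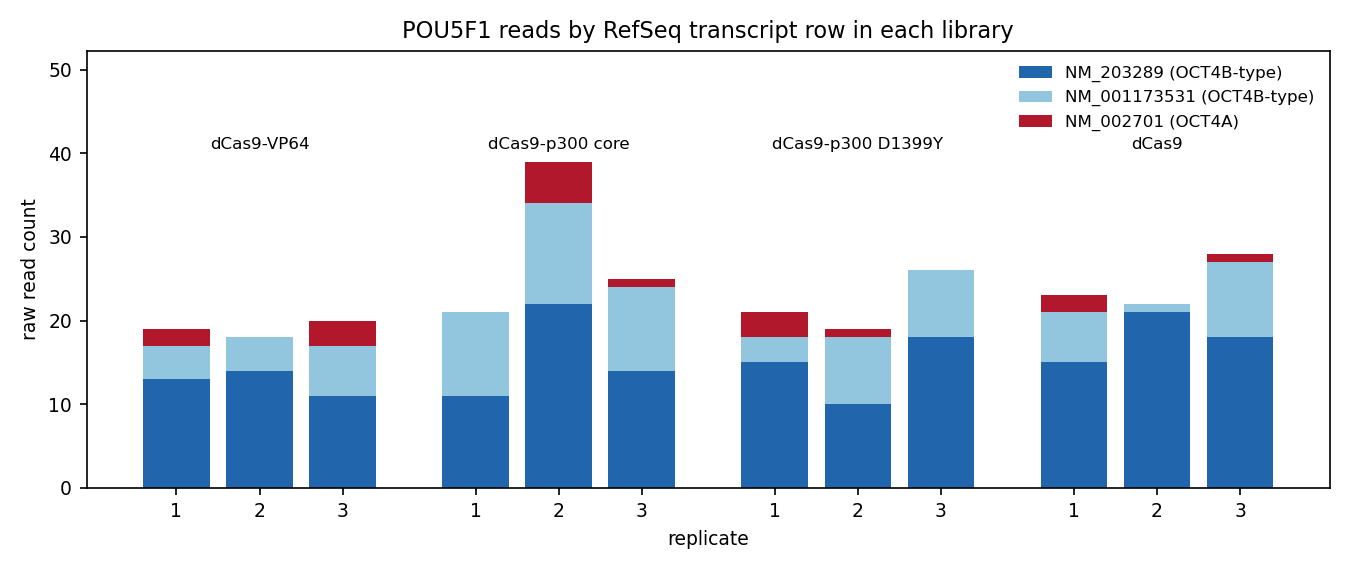
Raw read count of POU5F1 (y axis) in each of the 12 libraries, by group and replicate (x axis), stacked by RefSeq transcript row. The OCT4A row, in red, holds 0 to 5 reads in each library, and the OCT4B-type row NM_203289 holds the largest part of each bar, least clearly in core replicate 1, with 11 of 21 reads.

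Most POU5F1 reads were listed under OCT4B-type rows. The files hold 3 POU5F1 rows: NM_203289 with 182 reads, NM_001173531 with 81, and NM_002701, which encodes OCT4A, with 18. The OCT4A row had 2, 0 and 3 reads in the dCas9-VP64 libraries, 0, 5 and 1 in the core libraries, 3, 1 and 0 with D1399Y, and 2, 0 and 1 with dCas9. As a share of POU5F1 reads that is 8.77% with dCas9-VP64 (95% exact Clopper-Pearson interval 2.91 to 19.3), 7.06% with the core (2.63 to 14.7), 6.06% with D1399Y (1.68 to 14.8) and 4.11% with dCas9 (0.856 to 11.5). The intervals are wide and overlap, and a difference in the OCT4A share between groups was not tested. They rest on the pooled reads of 3 libraries and leave out the spread between libraries. The rule that assigned reads of the shared windows to a row is not stated in the labels, so the rows cannot be taken as isoform levels. The retrogene POU5F1B had 10 reads: 0, 0 and 0 in the dCas9-VP64 libraries, 0, 2 and 0 in the core libraries, 2, 2 and 0 with D1399Y, and 1, 1 and 2 with dCas9.

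The wider pluripotency network was expressed in part and gave no call, where edgeR called at most 0.00684% of all genes in any comparison. Of 17 factors and markers 16 were analysed, 14 had a read and 11 were tested, while FGF4 and GDF3 had 0 reads in all libraries and TDGF1 was not analysed here. Both edgeR and DESeq2 called 0 of the 11 in each comparison, and the unadjusted p in edgeR was under 0.05 for 1 gene with dCas9-VP64 against dCas9, 2 genes with the core against dCas9-VP64 and 0 in the other 3. Over all genes that share was 3.07% for dCas9-VP64 against dCas9 and 2.11% for the core against dCas9-VP64. Against dCas9, 3 of 11 lay above 0 with dCas9-VP64 (median log2 -0.08), 6 with the core (0.00) and 2 with D1399Y (-0.17). The genes of most reads, with their log2 change for the core against dCas9, were LIN28B, an RNA-binding repressor of let-7 (0.23 ± 0.22), the DNA methyltransferase gene DNMT3B (0.17 ± 0.14), the reprogramming factor KLF4 (0.00 ± 0.32) and the nuclear receptor gene ESRRB (-0.09 ± 0.30). With D1399Y against dCas9 these genes stood, in the same order, at 0.39 ± 0.22, -0.06 ± 0.14, -0.05 ± 0.32 and -0.10 ± 0.31. Summed list levels ran from 242 to 269 CPM with dCas9-VP64, from 246 to 283 CPM with the core, from 245 to 255 CPM with D1399Y and from 212 to 258 CPM with dCas9.

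The beta-globin cluster gave few or no reads in every group. Its 5 genes together had 1 read with dCas9-VP64, 6 with the core, 0 with D1399Y and 6 with dCas9, which is 13 reads in all. HBE1, the embryonic gene, gave 12 of them, spread over 7 libraries.

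HBE1 had 0, 0 and 1 reads in the dCas9-VP64 libraries, 1, 3 and 1 in the core libraries, 0, 0 and 0 with D1399Y, and 1, 2 and 3 with dCas9. Every core and dCas9 library thus held at least 1 read, against 1 of the 6 libraries of the other groups. In pooled CPM that is 0.0839 with dCas9-VP64 (95% Poisson interval 0.00212 to 0.467), 0.392 with the core (0.127 to 0.915), at most 0.268 with D1399Y by the limit of 3 counts, and 0.582 with dCas9 (0.214 to 1.27). For D1399Y the exact 95% Poisson interval ends higher, at 0.329. The highest single value, 1.23 CPM, was again dCas9 replicate 3, where the total was lowest and 3 reads make that level.

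An exact permutation test of HBE1 over the 4 groups gave p = 0.0266 (two-sided, unadjusted, and 1 of 4 members tested in this way). The exact permutation p was above 0.05 in 8 of the 12 tests that left out a library: without dCas9-VP64 replicates 1, 2 or 3 (p = 0.0803, 0.0803 and 0.0591), core replicates 1 or 3 (p = 0.0610 each), or any D1399Y replicate (p = 0.0860 each). Within the CV41 libraries it was p = 0.137 by the same exact test. Without dCas9 replicate 3 the exact permutation p was 0.0331. The share of all genes under 0.05 in this permutation test was not computed, so the HBE1 value has no background beside it. Of the 4 members tested, HBG2 had too few reads for any outcome but 1.

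Pair by pair, HBE1 groups did not overlap in 4 of the 5 comparisons. HBE1 was lower in all 9 pairs with dCas9-VP64 against dCas9, as were 2.59% of named genes, and with D1399Y against dCas9, as were 4.23%, where 2.82% were higher. It was higher in all 9 pairs with the core against D1399Y, as were 6% of named genes (3.43% were lower), and with the core against dCas9-VP64, as were 5.59% (4.16% were lower). The dCas9-VP64 library with a read and the dCas9 library with a single read stood at 0.258 and 0.275 CPM and were kept apart by their totals alone. The same holds for core replicates 1 and 3, with 1 read each at 0.265 and 0.261 CPM, against that dCas9-VP64 library. A comparison of 3 with 3 libraries cannot go below an exact p of 0.1.

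The counting intervals of HBE1 were wide. The ratio of pooled CPM was 0.144 for dCas9-VP64 over dCas9 (0.00313 to 1.19), 0.673 for the core over dCas9 (0.162 to 2.65) and at most 0.781 for D1399Y over dCas9. It was 4.67 for the core over dCas9-VP64 (0.523 to 221) and at least 0.804 for the core over D1399Y, both of these bounds being the ends of 95% counting intervals. The interval for the core over dCas9 ended below that of IL1RN. Those for the core over D1399Y and over dCas9-VP64 overlapped the IL1RN intervals, 8.87 to 14.0 and 2.99 to 3.89. In edgeR with no filter HBE1 had adjusted p = 0.940 for dCas9-VP64, 0.922 for the core and 0.733 for D1399Y, each against dCas9, and 1.00 for the core against both D1399Y and dCas9-VP64. Its unadjusted p in that edgeR fit was 0.0128 for D1399Y against dCas9 and 0.0305 for the core against D1399Y, where no fold could be estimated. In the same fit it was 0.0579 for dCas9-VP64 against dCas9, 0.553 for the core against dCas9 and 0.145 for the core against dCas9-VP64. The share of all genes under 0.05 in the fit with no filter was not computed. Of the 567 windows of the HBE1 transcript, 478 (84.3%) also lay in the overlapping annotated gene AC104389.4.

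The fetal and adult globin genes were at or near the limit of detection. HBG2 had 1 read, in core replicate 3, a CV42 library, and 0 in the other 11 libraries. That is 0.0784 CPM pooled over the core group (95% Poisson interval 0.00198 to 0.437). The exact permutation test over the 4 groups could not show a difference for HBG2. With 1 read in all, its statistic is the same in every arrangement of the libraries. As HBG2 shares 64.8% of its windows with HBG1, a single read listed under HBG2 need not tell the pair apart. For HBG1, HBD and HBB, with 0 reads, the limit of 3 counts over each group's total is 0.252 CPM with dCas9-VP64, 0.235 with the core, 0.268 with D1399Y and 0.291 with dCas9. The exact 95% Poisson intervals end higher, at 0.309, 0.289, 0.329 and 0.358 CPM in the same order. Over all 12 libraries the 3-count limit is 0.0650 CPM, or 0.103 CPM per kilobase for HBB, 0.0834 for HBG1 and 0.0827 for HBD. The exact interval over all 12 ends at 0.0799 CPM. No fold can be given for these 3 genes, and a fall in them was not detectable.

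**Figure D3:**
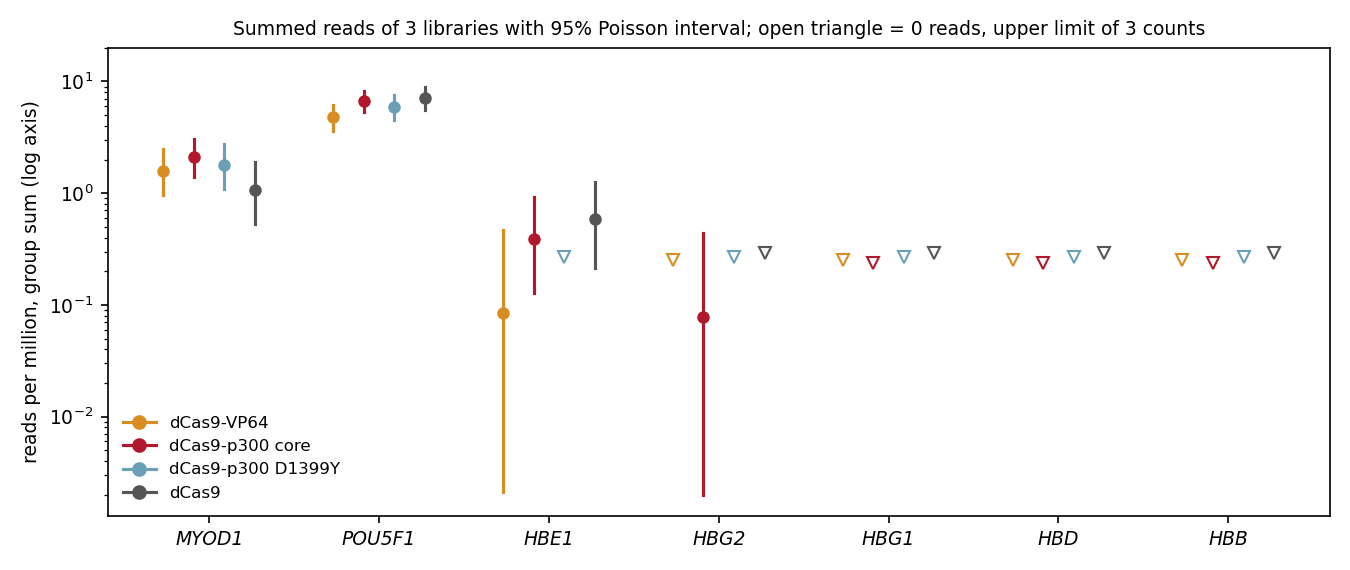
Pooled CPM of the 3 libraries of a group (y axis, log scale) for the 7 genes (x axis), in the dCas9-VP64, core, D1399Y and dCas9 groups. Points carry 95% Poisson intervals, and open triangles give the upper limit of 3 counts where a group had 0 reads; HBG1, HBD and HBB show triangles in all 4 groups, between 0.235 and 0.291.

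Of the other red blood cell genes listed, none was called, where edgeR called at most 0.00684% of all genes in any comparison. The list of alpha-globin and erythroid genes held 12 genes, of which 9 had a read and 3 were tested, and HBM, ALAS2 and GYPB had 0 reads in all libraries. Of the 3 tested, edgeR and DESeq2 each called 0 in every comparison, and 1 had an unadjusted p under 0.05 in edgeR with the core against dCas9, as had 3.11% of all genes. All 3 lay below 0 in each comparison with dCas9, with a median log2 of -0.21 with dCas9-VP64, -0.52 with the core and -0.24 with D1399Y, and these share the dCas9 libraries. With the core the theta globin gene HBQ1 stood at log2 -0.83 ± 0.36, the red cell anion exchanger gene SLC4A1 at -0.52 ± 0.30 and the erythropoietin receptor gene EPOR at -0.37 ± 0.17. With D1399Y against dCas9 these genes stood, in the same order, at -0.34 ± 0.35, -0.24 ± 0.30 and -0.19 ± 0.17. The adult alpha-globin gene HBA1 had 9 reads in the 12 libraries. Summed list levels ran from 29.0 to 29.6 CPM with dCas9-VP64, from 24.3 to 27.0 CPM with the core, from 25.4 to 33.2 CPM with D1399Y and from 31.0 to 43.4 CPM with dCas9.

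All 16 regulators of the globin genes had reads, and edgeR and DESeq2 each called 0 of the 12 tested in every comparison. Of all genes, edgeR called at most 0.00684% in any comparison. In edgeR 1 of the 12 had an unadjusted p under 0.05 with dCas9-VP64 against dCas9, 2 with D1399Y against dCas9 and 0 in the other 3. Over all genes that share was 3.07% with dCas9-VP64 and 5.89% with D1399Y, each against dCas9. Against dCas9, 7 of 12 lay above 0 with dCas9-VP64 (median log2 0.05), 8 with the core (0.07) and 7 with D1399Y (0.01). With the core against dCas9, IGF2BP1, an RNA-binding protein that favours fetal globin, stood at log2 0.29 ± 0.17, the chromatin remodeller gene CHD4 at 0.04 ± 0.11, the histone deacetylase gene HDAC2 at -0.06 ± 0.12 and the histone demethylase gene KDM1A at 0.02 ± 0.12. With D1399Y against dCas9 these genes stood, in the same order, at 0.39 ± 0.17, 0.08 ± 0.11, 0.01 ± 0.12 and -0.09 ± 0.12. The summed list level ran from 1508 to 1538 CPM with dCas9-VP64, from 1513 to 1539 CPM with the core, from 1508 to 1557 CPM with D1399Y and from 1416 to 1469 CPM with dCas9.

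The genes beside the 3 loci, in GRCh38 order, were described in the same way. Of 18 neighbours 17 were analysed, 14 had a read and 9 were tested, OTOG was not analysed here, and edgeR and DESeq2 each called 0 in every comparison. Of all genes, edgeR called at most 0.00684% in any comparison. In edgeR the unadjusted p was under 0.05 for 2 of 9 with dCas9-VP64, 1 with the core and 2 with D1399Y, each against dCas9, for 1 with the core against D1399Y and for 1 with the core against dCas9-VP64. Over all genes the shares were 3.07%, 3.11%, 5.89%, 1.86% and 2.11% in the same order. Against dCas9, 1 of 9 lay above 0 with dCas9-VP64 (median log2 -0.21), 4 with the core (-0.05) and 3 with D1399Y (-0.15). With the core, 9 of 9 lay above 0 against dCas9-VP64 (median log2 0.11), where 49.5% of all genes did. Against D1399Y, 7 of 9 did so with the core (0.15), where 51.0% of all genes did. KCNC1, a potassium channel gene next to MYOD1, averaged 16.9 ± 1.28 CPM with dCas9-VP64, 18.3 ± 1.66 CPM with the core, 14.1 ± 3.50 CPM with D1399Y and 10.3 ± 2.76 CPM with dCas9 (SD, n = 3 each). Its log2 difference from dCas9 was 0.75 ± 0.23 with dCas9-VP64 (adjusted p = 0.929, edgeR) and 0.86 ± 0.23 with the core (adjusted p = 0.879, edgeR). With D1399Y it was 0.52 ± 0.24 (adjusted p = 0.633, edgeR). SERGEF, on the same side of MYOD1, stood at -0.40 ± 0.21 and USH1C, on the other side, at 0.27 ± 0.18 with the core against dCas9. With dCas9-VP64 against dCas9 they stood at -0.50 ± 0.21 and -0.22 ± 0.18, and with D1399Y at -0.64 ± 0.21 and -0.33 ± 0.19.

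Next to POU5F1, the growth-linked gene TCF19 stood at log2 0.03 ± 0.13 and the HLA class I gene HLA-C at -0.18 ± 0.16 with the core against dCas9. With D1399Y against dCas9 they stood at 0.04 ± 0.13 and -0.19 ± 0.16. Around the globin cluster, the olfactory receptor genes OR52A5, OR52A1 and OR51V1 had 0 reads in all libraries. On the other side OR51B4 and OR51B2 had 1 read each and OR51B5 had 5, of which 2 were with dCas9-VP64, 3 with the core, 0 with D1399Y and 0 with dCas9.

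For the 3 members with more than 1 read, the upper ends of the counting intervals against dCas9 can be set beside IL1RN. For the core over dCas9, where IL1RN was 12.7 times as high, they were 1.30 for POU5F1, 2.65 for HBE1 and 4.43 for MYOD1. For dCas9-VP64 over dCas9, where IL1RN was 3.74 times as high, they were 0.967 for POU5F1, 1.19 for HBE1 and 3.47 for MYOD1. For D1399Y over dCas9, where IL1RN was 1.15 times as high, they were 1.18 for POU5F1, 0.781 for HBE1 and 3.87 for MYOD1. These intervals cover counting error alone, as reads counted with no molecular identifiers can be copies of 1 molecule, and the spread between libraries is not in them: for POU5F1 with dCas9-VP64 over dCas9 the counting interval ends below 1, while that of edgeR, with the spread, ends at 1.01.

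**Figure D4:**
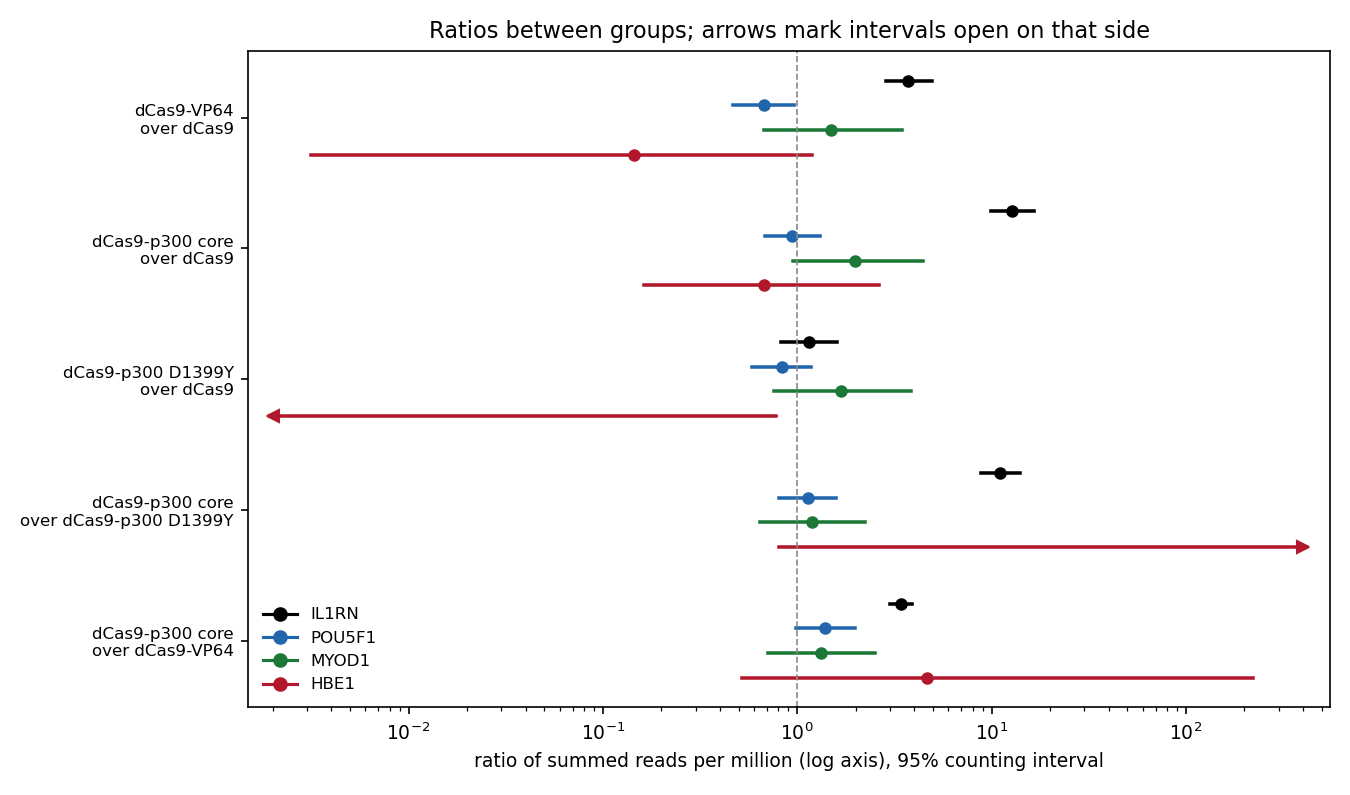
Ratio of pooled CPM between groups (x axis, log scale) with its 95% counting interval for IL1RN, POU5F1, MYOD1 and HBE1, in 5 comparisons named on the y axis. IL1RN lies at 12.7 for the core over dCas9 while the other 3 intervals there end at 4.43 or lower, and HBE1 has the widest intervals, open on one side in both comparisons with D1399Y, where it had 0 reads.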

How the data were processed

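The authors deposited raw read counts per RefSeq transcript, 1 table of whole numbers per library. The submitters' processing notes name the build hg19, DESeq2 1.6.2 and R 3.1.2 together with SAMtools, Bowtie2 and CASAVA. The treatment of reads shared by isoforms or gene copies, of strand and of duplicates is not stated in them. The 40709 transcripts were named from RefSeq (39324) and GENCODE (517) tables of GRCh38, so no coordinates are given; 868 stayed unnamed (1.07% of reads). Counts were summed per gene. edgeR 4.0.16 (R 4.3.3; TMM, filterByExpr with a minimum count of 10 and total of 15, quasi-likelihood, 1 fit of 12 libraries) tested 14613 genes with Benjamini-Hochberg adjustment over all of them and a threshold of 0.05; DESeq2 1.42.0 was an alternative. CPM uses total counts. Poisson and conditional binomial intervals are exact, at 95% (scipy 1.17.1). Permutation tests ran over all 369600 arrangements of 12 libraries, or over all arrangements of the libraries kept where some were left out. Their statistic is the between-group sum of squares, which takes differences in either direction. The edgeR step was checked on simulated counts. Genes named are the 7, IL1RN, the 4 genes of most reads in each list, any list gene called, the 3 nearest genes on each side and the 3 most like POU5F1; genes of lists with 0 reads were named after their values were seen. Members and lists were chosen with earlier results of these data known. Alternatives were RLE factors, DESeq2, no filter, a filter of 1 CPM in 6 libraries, groups alone, CV41 libraries alone, a pool term, a replicate block, 1 transcript per gene, other scales and each library left out.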

Additional observations from a re-analysis of the deposited data

How the results depend on the processing

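In edgeR and DESeq2, 0 members passed the threshold in each of the 75 alternatives for the 5 comparisons, where a filter of 1 CPM in 6 libraries, which let in 1 more member, tested 2 members, no filter tested 4 and the other settings tested POU5F1 alone. Leaving out 1 library at a time, the POU5F1 log2 change against dCas9 ran from -0.33 to 0.17 for the core and from -0.46 to 0.049 for D1399Y, each positive without dCas9 replicate 3. With the transcript of most reads in place of the sum, it was -0.10 for the core against D1399Y, and its mean count per library was 15.2 in place of 23.4, as 2 of its rows are left out. The IL1RN log2 change for D1399Y against dCas9 ran from -0.019, without dCas9 replicate 1, to 0.49. The exact permutation p of HBE1 ran from 0.00974 to 0.0860 on leaving out 1 library at a time and was 0.137 within CV41. The cause was not tested.

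All genes called by edgeR numbered 0 for dCas9-VP64 against dCas9 (1 with DESeq2, with no filter, with the block or without dCas9 replicate 3) and 1 for the core against dCas9 (2 with RLE or without dCas9 replicates 2 or 3, 3 with no filter, the filter of 1 CPM or 1 transcript per gene, 4 with DESeq2). They numbered 0 for D1399Y against dCas9 (1 with RLE, DESeq2, no filter, the filter of 1 CPM or 1 transcript per gene, or without dCas9 replicates 2 or 3), 1 for the core against D1399Y (4 with DESeq2 or the compared groups alone) and 1 for the core against dCas9-VP64 (0 within CV41, with the pool term and without any 1 of core replicates 1 to 3 or dCas9-VP64 replicates 1 or 2; 3 with no filter, 5 with DESeq2 and 6 with the compared groups alone).

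Same-numbered libraries deviated together at r above 0.1 in 14 of 18 pairs (median r 0.263, from -0.176 to 0.498), against 5 of 36 pairs of different numbers (median -0.126). All 3 pairs did so for the core with dCas9-VP64 and for D1399Y with dCas9, and not all in the other 3 comparisons. All 12 libraries were most like one of their own number, a hint from the data and not from the labels. With the replicate block 0 members passed in each comparison, and it turned 1 call, IL1RN for dCas9-VP64 against dCas9 (adjusted p = 0.0232, edgeR). The exact permutation tests ignore the numbers. Depth limits MYOD1 and the globin genes most, as 3 counts in 1 library are 0.582 to 1.23 CPM.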
